A study of Homo sapiens with 9 samples.

Results

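The death receptors of the tumor necrosis factor (TNF) family and the proteins that bind to their intracellular tails were examined in MDA-MB-453 cells. The 10 genes were taken by symbol from the gene count table, which lists 59452 genes, and all 10 were found. They were the receptors *TNFRSF1A*, *TNFRSF10A*, *TNFRSF10B*, *TNFRSF12A*, *TNFRSF21* and *FAS*, the adaptors *FADD* and *TRADD*, the initiator caspase *CASP8* and its regulator *CFLAR*. MDA-MB-453 is an established human breast cancer line, labelled as triple-negative and of wild-type genotype, and all values come from this 1 line. It was grown for 48 hours in 3 conditions of 3 libraries each, which the methods describe as biological triplicates. Attached cells received vehicle (DMSO), cells in forced suspension on poly-HEMA-coated plates received the same vehicle, and a further set of suspended cells received 10 µmol/L AT-0174, a dual inhibitor of the tryptophan-degrading enzymes TDO2 and IDO1. No attached cells with AT-0174 were analysed here, so an effect of the inhibitor can be read only in suspension. The comparison of suspended with attached cells asks what loss of attachment does, and that of AT-0174 with vehicle asks what the inhibitor does in suspended cells.

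Death receptors are membrane proteins whose cytoplasmic death domain recruits adaptors when the ligand binds. *TNFRSF10A* and *TNFRSF10B*, the receptors of the ligand TRAIL, and *FAS* recruit *FADD*, which brings in caspase-8 to start apoptosis, and the caspase-like protein encoded by *CFLAR* (c-FLIP) competes with or restrains caspase-8 in the same complex. *TNFRSF1A*, the main TNF receptor, first recruits *TRADD* and *RIPK1* and signals mostly through NF-κB, and *TNFRSF12A* (Fn14), the receptor of TWEAK, has no death domain. Loss of attachment can kill epithelial cells, a death named anoikis in which this pathway has been studied.

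The 2 sequences printed here bear on the results below. *TNFRSF12A* was the member with the largest fall in suspension among those tested, and its annotated transcripts differ by a coding exon of 105 bases at chr16:3021215-3021319 (GRCh38, plus strand), which TNFRSF12A-201 (129 codons) holds and TNFRSF12A-202 (94 codons) lacks.
*TNFRSF12A* exon: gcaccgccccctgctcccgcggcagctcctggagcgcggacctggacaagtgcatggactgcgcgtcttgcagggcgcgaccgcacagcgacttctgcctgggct
*FADD* is a member past the threshold in a comparison with attached cells and its promoter was among the 13 RefSeq promoters of 6 of the 10 members. The 250 bases before its start lie at chr11:70203046-70203295 (GRCh38.p14, plus strand), with the GC box GGGCGG, searched on both strands, in capitals.
*FADD* promoter: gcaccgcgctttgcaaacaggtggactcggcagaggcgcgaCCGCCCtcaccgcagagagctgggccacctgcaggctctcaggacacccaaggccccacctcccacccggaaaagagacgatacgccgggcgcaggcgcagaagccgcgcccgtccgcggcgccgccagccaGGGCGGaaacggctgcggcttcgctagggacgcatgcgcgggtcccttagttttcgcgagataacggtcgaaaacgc
The window held 2 GC boxes, a motif found in 42.6% of 35116 RefSeq promoter windows of the same length. The NF-κB consensus was found in 9.96% of those windows and not in that of *FADD*. Among the other member windows, a *CFLAR* window (chr2:201118466-201118715) and a *FAS* window (chr10:88991181-88991430) each held 1 match, and the rest held 0. These matches describe letters and not occupied sites. *TNFRSF10A*, *TNFRSF10B*, *TNFRSF12A* and *TRADD* had no entry.

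The libraries held 36649997 to 48019126 estimated counts each, so that 3 counts, the limit for a gene listed at 0, equal 0.0625 to 0.0819 CPM (counts scaled to library size) in counting error only. In TPM, which scales for transcript length as well as depth, *FOXA1* was at 321 to 426 and *KRT8* at 779 to 877, whereas *ESR1* reached at most 0.141 and *PGR* at most 0.306. *ERBB2*, whose protein a triple-negative tumor does not overexpress, had mRNA at 398 to 436 TPM. Of the fibroblast markers *COL1A1* was at 51.5 to 66 TPM in cultures where *DCN* and *LUM* were at 0, and *CD3E* was at 0 as well. The summed TPM of 5 leukocyte markers, made up mostly of *CD68* with *PTPRC* at 0.076 or less, was 3.36 to 3.49 in attached cells, 1.37 to 3.24 in suspended cells with vehicle and 2.36 to 4.68 with AT-0174, and its part in the results was not tested. The share of counts from the mitochondrial genome moved with attachment, at 7.56% to 9.32% in attached cells, 4.05% to 4.34% in suspended cells with vehicle and 3.73% to 5.51% with AT-0174. With those mitochondrial genes left out before scaling, a setting chosen after seeing the data, the same genes of the 10 passed the threshold in every comparison, and any other part of this shift in the results was not tested.

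Per length, the receptors spanned a wide range. *TNFRSF12A* had the highest level of the 10 genes in every library, with 178 to 213 TPM. *TNFRSF1A* followed at 101 to 125 TPM and *FADD* at 71.3 to 88.4 TPM, and the ranges of these 3 genes over the 9 libraries did not overlap. *TRADD* at 23.8 to 31 TPM and *CASP8* at 18.0 to 22.1 TPM came next. The TRAIL receptors and *CFLAR* could not be ordered beyond their spread, with *TNFRSF10A* at 10.8 to 17.5, *CFLAR* at 11.6 to 14.5 and *TNFRSF10B* at 9.87 to 12.3 TPM. *TNFRSF21* (death receptor 6, best known from neurons and lymphocytes) was at 3.92 to 4.70 TPM, and *FAS* was the lowest at 0.0319 to 0.268 TPM. A gene's summed TPM depends on how reads were split among its transcripts, and for *TNFRSF1A* 39.9% of it came from the short transcript ENST00000543359, which had at most 689 counts in a library.

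**Figure D1:**
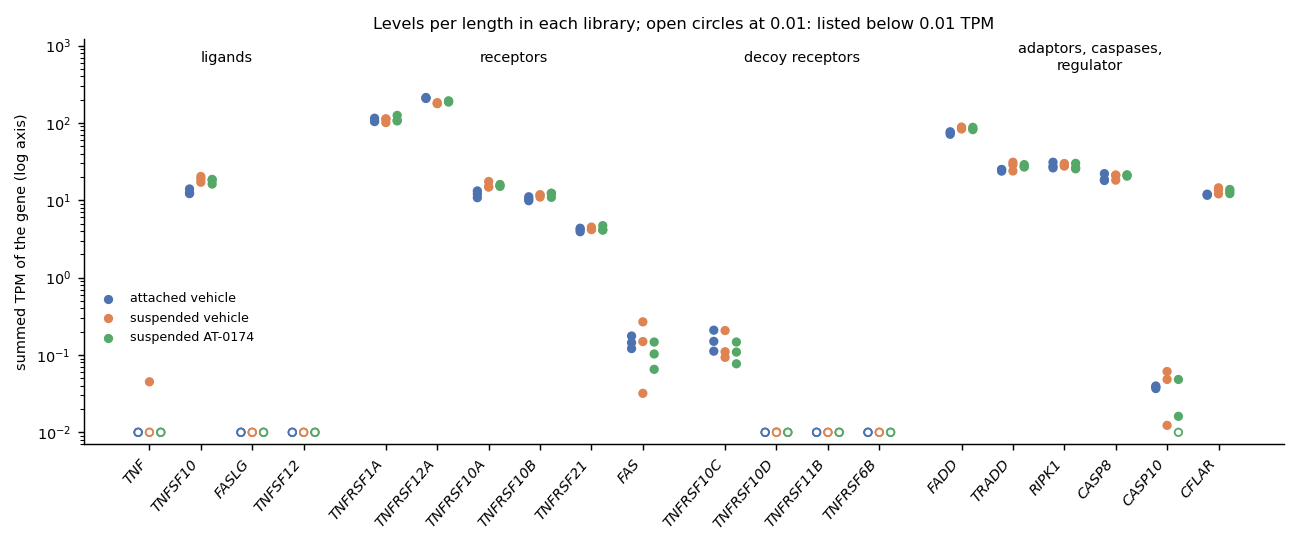
Summed TPM (log axis) of the 10 genes and of selected ligands, decoy receptors, *RIPK1* and *CASP10* in the 9 libraries, by role and colored by condition, with open circles at the bottom for values listed below 0.01 TPM. *TNFRSF12A*, at 178 to 213 TPM, lies above the other genes of this plot, while *FAS*, the ligands other than *TNFSF10*, the decoy receptors and *CASP10* lie near the bottom.

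By counts, suspension with vehicle lowered *TNFRSF12A* and *CFLAR* and raised *TNFRSF10A* relative to attached cells with vehicle. Of these calls that of *TNFRSF12A* held in 18 of 18 alternatives, that of *CFLAR* in 5 and that of *TNFRSF10A* in 4. With counts rebuilt from TPM the log2 fold change of *CFLAR* turned to 0.09. Of the 10 genes, 9 passed the filter on low counts, each with at least 387 counts in every library, and *FAS* did not. Of these 9, 3 had an adjusted p under 0.05 in edgeR's quasi-likelihood test, 1 higher and 2 lower. Of all 15528 genes tested 21.2% did so, 10.4% higher and 10.8% lower. Their median log2 fold change was 0.01, as against 0.00 over all genes tested. The 3 libraries of suspended cells lay outside the range of the attached cells in 4 of the 9 genes, which was the case for 38.1% of all genes. Apart from *TNFRSF12A*, every member's log2 fold change in this comparison lay between -0.12 and 0.16.

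AT-0174 in suspended cells gave no member past the threshold. In edgeR, in limma-voom and in DESeq2 alike, 0 of 9 had an adjusted p under 0.05, where 0.779% of all genes did in edgeR, 0.522% higher and 0.258% lower. At an unadjusted p under 0.05, 3 of 9 were found by each of the 3 tools, and edgeR found 1401 of all genes, or 9.02%. These were *TNFRSF12A*, *CASP8* and *TNFRSF1A*, all higher with AT-0174. They were also the 3 genes whose AT-0174 libraries lay wholly above those with vehicle, a separation seen in 15.4% of all genes in either direction.

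Suspended cells with AT-0174 differed from attached cells with vehicle in both treatment and attachment. Here 5 of 9 members passed, against 24.0% of all genes (12.2% higher and 11.8% lower). *TNFRSF1A*, *TNFRSF10A* and *FADD* were higher and *TNFRSF12A* and *CFLAR* were lower. In 7 of 9 the groups did not overlap, as in 39.5% of all genes. Each pair of the 3 comparisons shares 3 libraries, so their values are not independent.

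**Figure D2:**
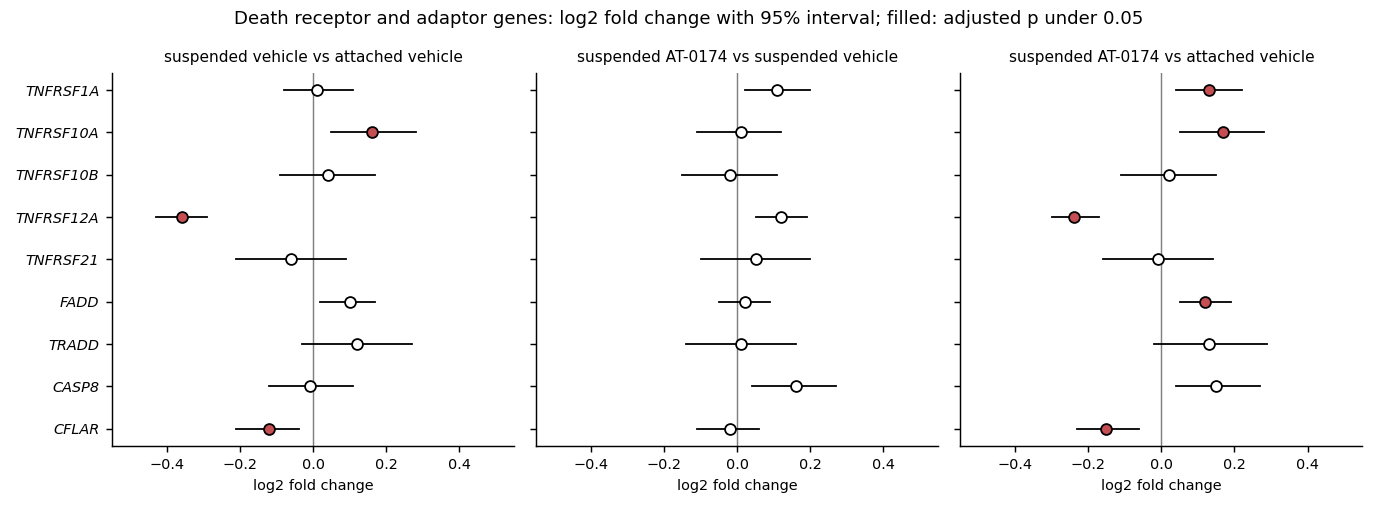
Log2 fold change (horizontal axis) with its 95% interval for the 9 genes tested, in the 3 comparisons, with filled points at an adjusted p under 0.05. *TNFRSF12A* at -0.36 is the point farthest from 0 in the left panel, and no point is filled in the middle panel.

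*TNFRSF12A* (ENSG00000006327, chr16:3018445-3022383, plus strand) encodes a small receptor that binds TRAF proteins and activates NF-κB. Attached cells had 129, 132 and 133 CPM, suspended cells with vehicle 103, 100 and 104 CPM, and suspended cells with AT-0174 109, 114 and 111 CPM. The 3 groups did not overlap, with the attached cells highest and the suspended cells with vehicle lowest. Suspension lowered the gene to 0.780 of its attached level, a log2 fold change of -0.36 (SE 0.0316, 95% interval -0.43 to -0.29, edgeR adjusted p = 1.94e-05). Over the 18 alternatives the log2 fold change was -0.37 to -0.33. With AT-0174 the level was 1.09 times that with vehicle, a log2 fold change of 0.12 (SE 0.0316), which did not pass (edgeR adjusted p = 0.137, 0.0878 to 0.427 over 18 alternatives). Suspended cells with AT-0174 stayed below attached cells by a log2 fold change of -0.24 (SE 0.0314, edgeR adjusted p = 0.000339), again in 18 of 18 alternatives. *CLDN6*, whose exons share at most 40 bases with it on the opposite strand, had 1 to 11 counts over the whole gene.

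*TNFRSF1A* (ENSG00000067182, chr12:6328757-6342114, minus strand) encodes TNF receptor 1, which carries a death domain. Its levels were 95.1, 97.4 and 92.1 CPM in the attached libraries and 97.9, 96.8 and 92.7 CPM in the suspended ones with vehicle, 2 ranges that overlap. The log2 fold change was 0.01, with a 95% interval of -0.08 to 0.11. With AT-0174 the values were 101, 99.8 and 110 CPM, all above the other 6 libraries. Against suspended cells with vehicle the log2 fold change of 0.11 (SE 0.0420) did not pass (edgeR adjusted p = 0.392), and against attached cells that of 0.13 (SE 0.0422) did (edgeR adjusted p = 0.0443). The latter call held in 6 of 18 alternatives. Among the libraries left out in turn it was lost without any but replicate 2 of AT-0174, and without replicate 3 of AT-0174, the highest, the log2 fold change was 0.08 (edgeR adjusted p = 0.187). With counts rebuilt from TPM it was 0.01 (edgeR adjusted p = 0.976).

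*TRADD* (ENSG00000102871, chr16:67154185-67159909, minus strand), the adaptor of TNF receptor 1, had no call. It was at 22, 21.9 and 21.4 CPM when attached, 20.7, 24.3 and 25.9 CPM when suspended with vehicle and 24.9, 23.7 and 23.0 CPM with AT-0174. The suspended libraries with vehicle spread on both sides of the attached ones, with a log2 fold change of 0.12 and an edgeR adjusted p = 0.246. Replicate 1 of suspended vehicle decided this, since without it the log2 fold change was 0.21 (edgeR adjusted p = 0.0222). The interval of the difference between AT-0174 and vehicle was -0.14 to 0.16.

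The receptors of TRAIL lie on chromosome 8, *TNFRSF10A* (ENSG00000104689, DR4) at chr8:23190452-23225102 and *TNFRSF10B* (ENSG00000120889, DR5) at chr8:23020133-23069031, both on the minus strand. *TNFRSF10A* was at 19.8, 18.2 and 19.6 CPM when attached, 22.2, 22 and 20.4 CPM when suspended with vehicle and 21.6, 22.2 and 21.1 CPM with AT-0174. All 6 suspended libraries were above all 3 attached ones. The rise with suspension was a log2 fold change of 0.16 (SE 0.0532, edgeR adjusted p = 0.0471), close to the threshold, and it passed in 4 of 18 alternatives with adjusted p-values of 0.0354 to 0.154. It was lost when any library other than replicate 3 of suspended vehicle was left out. With AT-0174 against attached cells the log2 fold change was 0.17 (edgeR adjusted p = 0.0352), which passed in 11 of 18 alternatives and was lost without attached replicate 2 or 3 or any AT-0174 library. *TNFRSF10B* was at 21.6, 19.9 and 20.8 CPM, 21.1, 21 and 21.9 CPM, and 21.6, 22.4 and 19.1 CPM in the same order, and its ranges overlapped throughout. Its log2 fold change with suspension was 0.04 (95% interval -0.09 to 0.17), and that of AT-0174 against vehicle was -0.02 (-0.15 to 0.11). Whether the TRAIL receptors responded differently was not tested. *TNFRSF10B* shares at most 377 exonic bases with *RHOBTB2* on the opposite strand, which had 1349 to 1662 counts, and whether the counting used strand is not given in the sources used here.

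*TNFRSF21* (ENSG00000146072, chr6:47231532-47309905, minus strand) was at 10.3, 10.8 and 10.0 CPM when attached, 10.0, 9.59 and 10.3 CPM when suspended with vehicle and 11.0, 10.2 and 9.77 CPM with AT-0174. All groups overlapped, and the 95% intervals of the log2 fold changes were -0.21 to 0.09 for suspension and -0.10 to 0.20 for AT-0174. *FAS* (ENSG00000026103, chr10:88953813-89029605, plus strand), the receptor of FAS ligand, had 3 to 9 counts in each library, or 0.0775 to 0.205 CPM. At this depth no difference in *FAS* could be detected, and it was not tested. Its exons share at most 166 bases with *STAMBPL1* on the same strand, a gene with 318 to 490 counts.

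**Figure D3:**
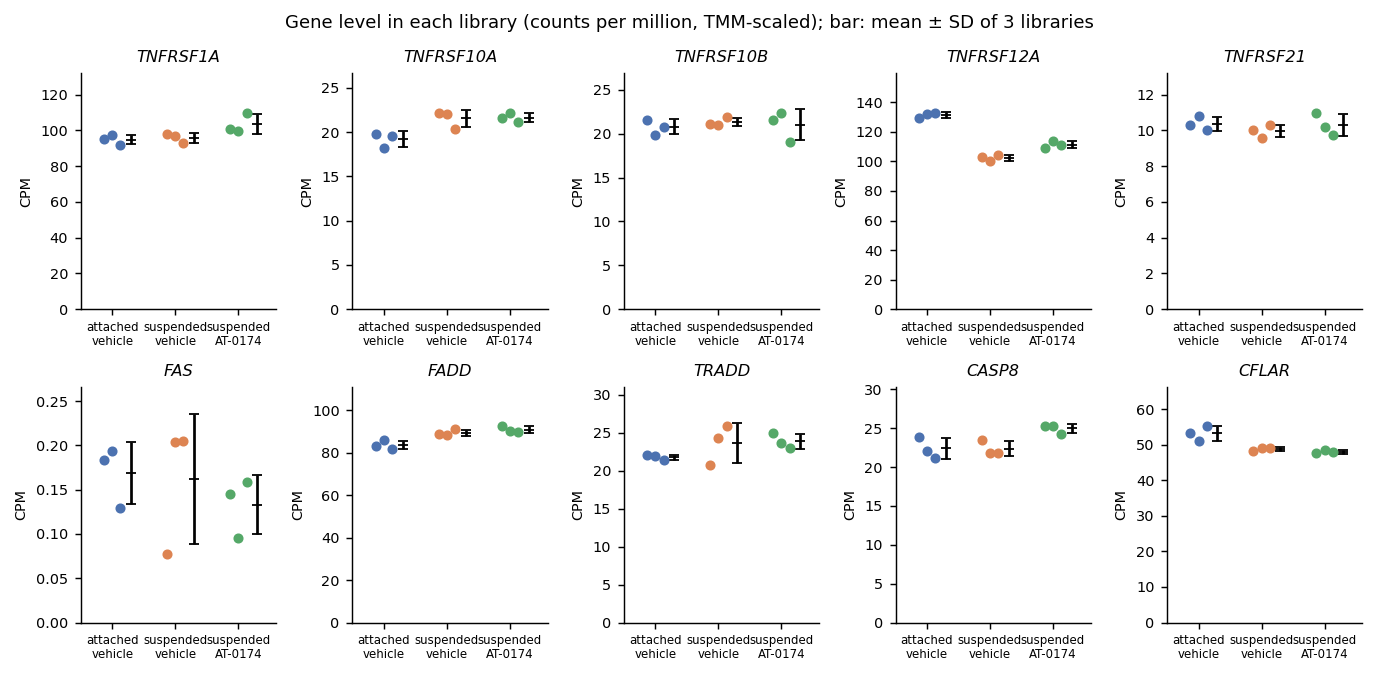
CPM of the 10 genes in each of the 9 libraries (points, one panel per gene, axis from 0), with the mean ± SD of 3 libraries beside each group. *TNFRSF12A* drops from 129 to 133 CPM in attached cells to 100 to 104 CPM in suspended cells with vehicle, while the *FAS* axis ends below 1 CPM.

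*FADD* (ENSG00000168040, chr11:70203296-70207390, plus strand), the adaptor that joins receptors to caspase-8 and whose promoter is printed above, had 1 transcript in the table. It was at 83.3, 85.9 and 81.9 CPM when attached, 88.7, 88.3 and 91.2 CPM when suspended with vehicle and 92.7, 90.1 and 89.8 CPM with AT-0174. Every suspended library was above every attached one. The difference for suspension with vehicle was a log2 fold change of 0.10 (SE 0.0328) and missed the threshold (edgeR adjusted p = 0.0564), passing in 1 of 18 alternatives. With AT-0174 against attached cells it was 0.12 (SE 0.0327, edgeR adjusted p = 0.0201). That call held in 15 of 18 alternatives, and was lost without attached replicate 1, attached replicate 3 or AT-0174 replicate 1, with log2 fold changes of 0.10 to 0.12. AT-0174 and vehicle in suspension differed by 0.02, with an interval of -0.05 to 0.09.

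*CASP8* (ENSG00000064012, chr2:201233443-201361836, plus strand), the initiator caspase of the pathway, was at 23.9, 22.1 and 21.2 CPM when attached, 23.5, 21.8 and 21.8 CPM when suspended with vehicle and 25.3, 25.3 and 24.3 CPM with AT-0174. The vehicle groups overlapped and the AT-0174 libraries lay above both. The log2 fold change of suspension was -0.01 (95% interval -0.12 to 0.11), and that of AT-0174 against vehicle was 0.16 (SE 0.0533, edgeR adjusted p = 0.310, 0.212 to 0.935 over 18 alternatives). Against attached cells it was 0.15 with AT-0174 (edgeR adjusted p = 0.0550), which passed in 3 of 18 alternatives. Without attached replicate 1, the highest of its group, that log2 fold change was 0.20 (edgeR adjusted p = 0.0234), and with counts rebuilt from TPM it was 0.05 (edgeR adjusted p = 0.794).

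*CFLAR* (ENSG00000003402, chr2:201116154-201176687, plus strand) lies near *CASP8* on chromosome 2 and encodes a related protein without caspase activity of its own. Its levels were 53.2, 51.0 and 55.3 CPM when attached, 48.2, 49.2 and 49.1 CPM when suspended with vehicle and 47.6, 48.6 and 47.9 CPM with AT-0174. The attached cells lay above both suspended groups, whose ranges overlapped. Suspension lowered *CFLAR* by counts with a log2 fold change of -0.12 (SE 0.0387, edgeR adjusted p = 0.0403), and suspended cells with AT-0174 were lower than attached cells by -0.15 (SE 0.0386, edgeR adjusted p = 0.0157). The first call held in 5 of 18 alternatives and was lost without any library but attached replicate 2, and the second held in 15 of 18 and was lost without attached replicate 3 or AT-0174 replicate 1. The direction depended on the unit. In TPM *CFLAR* was at 11.6 to 12.0 in attached cells, 12.1 to 14.5 in suspended cells with vehicle and 12.2 to 13.8 with AT-0174, and with counts rebuilt from TPM the log2 fold changes were 0.09 and 0.08 (edgeR adjusted p = 0.532 and 0.554). Of the gene's counts, 70.2% to 74.1% were assigned to CFLAR-201, a transcript of 14612 bases that held 24.1% to 32.3% of its TPM.

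The transcripts of the 10 genes were compared in the same way. Of 109 annotated transcripts in the table, 43 passed the filter and 0 had an adjusted p under 0.05 in edgeR in any of the 3 comparisons, or in limma-voom, while 0.252%, 0.0345% and 0.591% of 66693 transcripts did in edgeR for suspension, AT-0174 against vehicle and AT-0174 against attached cells. At an unadjusted p under 0.05, 7, 2 and 8 of the 43 were found in the 3 comparisons, as against 13.5%, 3.85% and 13.1% of all transcripts. The assignment of reads to transcripts is itself an estimate whose error did not enter these tests.

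TNFRSF12A-201, the form with the exon printed above, held 85.0% of the summed TPM of *TNFRSF12A*, and its log2 fold change in suspension was -0.23 (edgeR adjusted p = 0.0801). The retained-intron transcript TNFRSF12A-203 held 6.62%, with -0.85 (edgeR adjusted p = 0.0918). With at least 10 counts in every library required, which left 40952 transcripts, both passed, at -0.25 (edgeR adjusted p = 0.0270) and -0.88 (edgeR adjusted p = 0.0351). The share of all 40952 transcripts that passed under this filter is not given here, so these calls cannot be set against it. TNFRSF12A-202, which lacks the exon, was at 4.27 to 15.9 TPM. Its group means were 12.6 ± 3.39 TPM in attached cells, 10.7 ± 3.38 in suspended cells with vehicle and 6.05 ± 1.94 with AT-0174 (SD, n = 3 each). The log2 fold change of TNFRSF12A-202 with AT-0174 was -0.79 (SE 0.341) against vehicle, which did not pass. Against attached cells it was -1.09 (SE 0.343), which did not pass either (edgeR adjusted p = 0.224).

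For *CFLAR*, transcripts that encode the long form of 480 codons, CFLAR-201 and CFLAR-207, together had 5.11 ± 0.332 TPM in attached cells, 5.06 ± 0.333 in suspended cells with vehicle and 4.59 ± 0.45 with AT-0174. CFLAR-205 (250 codons) held 18.3% of the gene's TPM and CFLAR-213 (384 codons) 16.5%. The short form of 221 codons ranged from 0 to 2.91 TPM, with an SD of 0.637 to 1.15 within groups, so no difference between conditions could be read from it. TNFRSF10B-201 (440 codons) and TNFRSF10B-202 (411 codons), the long and the short receptor form, held 52.6% and 31.7% of that gene's TPM, and the short form ranged from 0.873 to 5.14 TPM. TNFRSF10A-201 held 72.9% and the shorter ENST00000613472 held 26.8%. The TPM of *CASP8* was spread over many transcripts, with ENST00000358485 (538 codons, the bottom segment of each bar in the plot of transcript shares) at 21.5%, CASP8-206 (464 codons) at 18.3% and ENST00000424461 at 10.7%. TRADD-201 held 81.9% of *TRADD*, TNFRSF1A-201 held 49.8% of *TNFRSF1A*, and *TNFRSF21* had a single transcript with counts. The few *FAS* counts were spread over transcripts of which ENST00000352159, ENST00000640681, ENST00000640250 and ENST00000357339 each held at least 10% of its mean TPM.

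**Figure D4:**
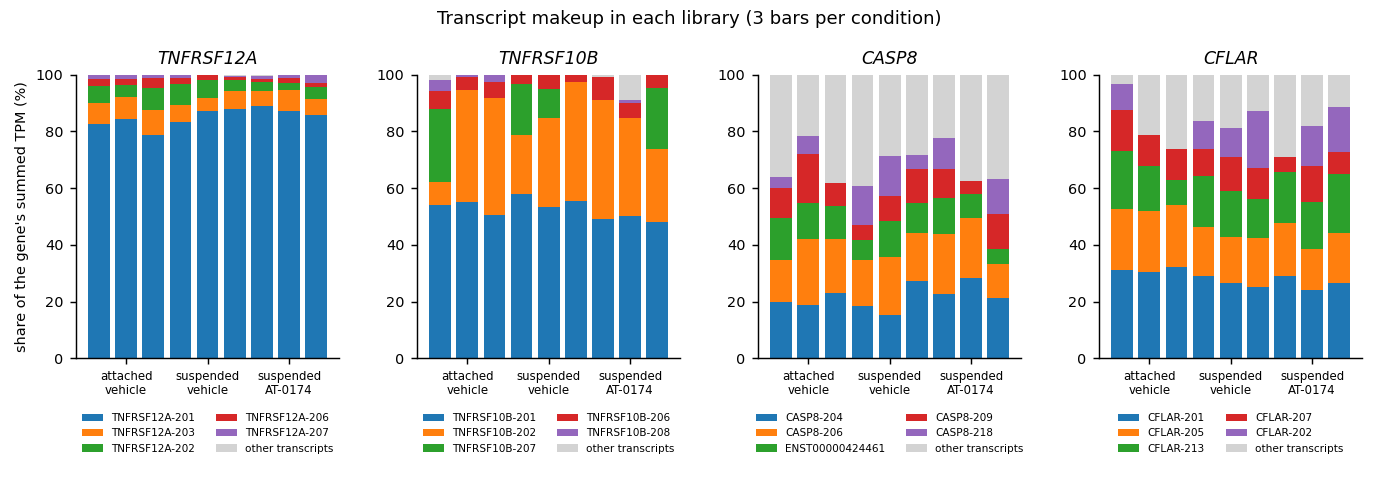
Share of the gene's summed TPM (percent, bars from 0 to 100) taken by its 5 leading transcripts in each of the 9 libraries, for *TNFRSF12A*, *TNFRSF10B*, *CASP8* and *CFLAR*. TNFRSF12A-201 holds 78.7% to 88.9% in every library, while TNFRSF10B-202 varies from 7.85% to 41.9% and no *CASP8* transcript exceeds 28.3%.

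The other genes of the pathway were taken from 7 lists with 62 genes in all, of which 46 were tested. In suspended against attached cells with vehicle 7 of the 46 passed, 3 higher and 4 lower, with a median log2 fold change of -0.01, while 21.2% of all genes tested passed. With AT-0174 against vehicle 0 of 46 passed in edgeR, limma-voom and DESeq2, and 3, 3 and 1 had an unadjusted p under 0.05, as did 9.02%, 9.27% and 6.98% of all genes. In suspended cells with AT-0174 against attached cells 7 of the 46 passed, 3 higher and 4 lower, while 24.0% of all genes did.

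Of the 7 ligands 2 were tested. *TNFSF10*, which encodes TRAIL, was at 12.7, 11.7 and 11.2 CPM when attached, 15.7, 16 and 15.7 CPM when suspended with vehicle and 15.8, 14.9 and 15.6 CPM with AT-0174. It rose in suspension by a log2 fold change of 0.42 (SE 0.0585, edgeR adjusted p = 0.000724) in 18 of 18 alternatives, and was higher with AT-0174 than in attached cells by 0.38 (edgeR adjusted p = 0.000851). *FASLG* and *TNFSF12*, which encodes TWEAK, were listed at 0 in all 9 libraries, *TNF* had at most 2 counts, *LTA* at most 6 and *LTB* at most 1. The decoy receptors, which bind ligands of the family without signaling death, were also near the limit of detection. *TNFRSF10C* was at 2 to 7 counts, *TNFRSF10D* at 1 at most, and *TNFRSF11B* and *TNFRSF6B* at 0. Among the 10 decoy and other receptors 2 were tested and 0 passed in any comparison, and the untested *TNFRSF1B* and *EDAR* had 0 counts, *EDA2R* at most 1 and *NGFR* at most 7.

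Receptor complex kinases and ubiquitin enzymes had 2 of 17 lower and 0 higher in suspension, against 10.8% and 10.4% of all genes tested. Their log2 fold changes had a median of -0.05. *RNF31*, the catalytic subunit of the linear ubiquitin ligase, changed by -0.19 (edgeR adjusted p = 0.0102) and *TAB3*, an adaptor of the kinase TAK1, by -0.22 (edgeR adjusted p = 0.00392). The call of *TAB3* held in 18 of 18 alternatives and that of *RNF31* in 17, being lost without suspended vehicle replicate 2 (edgeR adjusted p = 0.0507). *RNF31* and *TAB3* were also lower with AT-0174 than in attached cells, in 13 and 17 of 18 alternatives. For *RNF31* the call was lost without attached replicate 2 or 3 or any AT-0174 library, with -0.09 on the log2 scale without attached replicate 3 (edgeR adjusted p = 0.149). With AT-0174 *TRAF1* was lower than in attached cells at -0.59 (edgeR adjusted p = 0.0377), which passed in 9 of 18 alternatives. *RIPK1*, the kinase that binds *TRADD*, did not pass, with -0.06 in suspension and -0.06 with AT-0174 against vehicle (edgeR adjusted p = 0.370 and 0.756). *TNFAIP3* had at most 10 counts. In the necroptosis list *RIPK3* was at 0 counts in all libraries and *MLKL* did not pass.

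The caspases and downstream genes had 1 of 13 higher and 1 lower in suspension, against 10.4% and 10.8% of all genes tested. Their median was 0.06 on the log2 scale. The genes past the threshold were *CYCS* (cytochrome c) at 0.15 (edgeR adjusted p = 0.0159) and *CASP2* at -0.13 (edgeR adjusted p = 0.0317). *CASP2* lost its call in 6 of 18 alternatives, among them without attached replicate 2 or 3 or any library of suspended vehicle, and did not pass with AT-0174 against attached cells, where *CYCS* did. The call of *CYCS* in suspension held in 15 of 18, and was lost without attached replicate 3 or suspended vehicle replicate 2 and with counts rebuilt from TPM, where the log2 fold change was 0.08 (edgeR adjusted p = 0.198). *BID*, a substrate of caspase-8 that acts at the mitochondria, had a log2 fold change of 0.13 in suspension (edgeR adjusted p = 0.10) and of -0.03 with AT-0174 against vehicle (edgeR adjusted p = 0.936). *CASP10*, the close relative of *CASP8*, had 1 to 7 counts. The 9 regulators of the death-inducing complex had a median of 0.01 on the log2 scale in suspension. Of these *BCAP31* was higher at 0.12 (edgeR adjusted p = 0.0155) and *PEA15*, which binds *FADD* and caspase-8, lower at -0.14 (edgeR adjusted p = 0.0219), and both also passed with AT-0174 against attached cells, there in 18 of 18 alternatives. In suspension the call of *BCAP31* was lost without attached replicate 3 (edgeR adjusted p = 0.0517), and that of *PEA15* without attached replicate 2 or suspended vehicle replicate 2 or 3 (edgeR adjusted p up to 0.0984). The sheddases *ADAM10* and *ADAM17* gave 0 of 2 calls in each comparison.

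**Figure D5:**
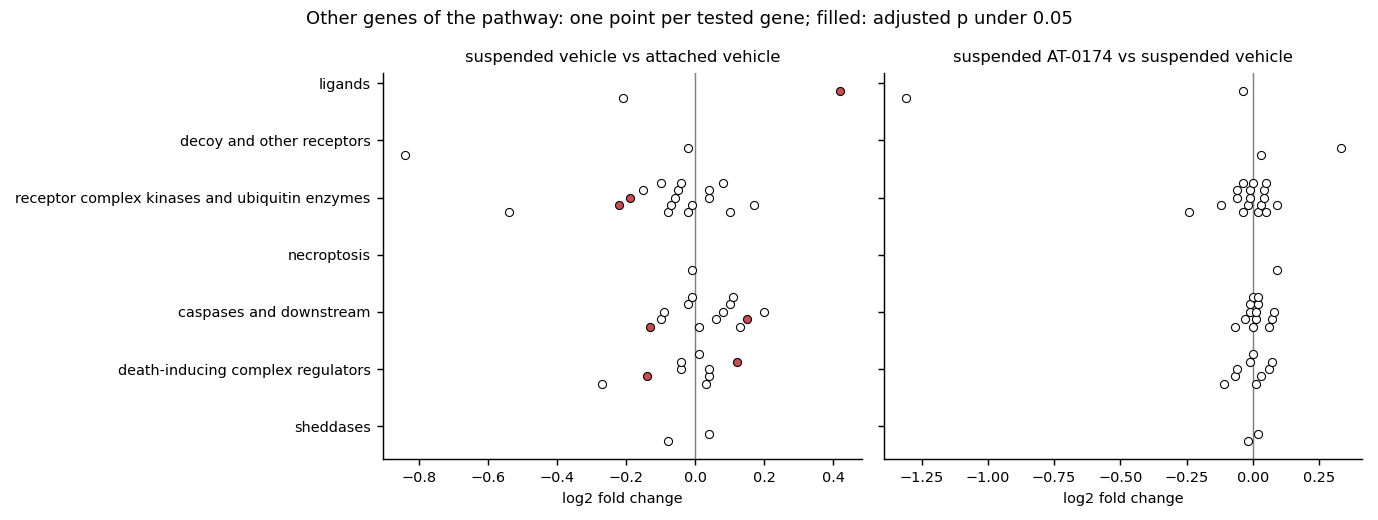
Log2 fold change of each tested pathway gene (one point per gene, by list) for suspension with vehicle against attached cells (left) and for AT-0174 against vehicle in suspension (right, on its own axis), with filled points at an adjusted p under 0.05. *TNFSF10* at 0.42 is the filled point farthest to the right in the left panel, and the right panel has no filled point.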

How the data were processed

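RNA from 9 cultures of MDA-MB-453 cells was sequenced by the authors. The labels and the methods disagree on the library kit, SMARTER in the former and Universal Plus mRNA in the latter. According to the methods and the submitters' processing notes, adapters were removed with cutadapt 3.4 in Trim Galore 0.6.7, reads were aligned with STAR 2.7.9a to GRCh38 and transcripts were quantified with Salmon 1.10.1. The authors deposited estimated counts per transcript and, summed by gene, an estimated count table without normalization. The TPM values deposited by the authors are per transcript, divided by effective length and scaled to a fixed total.

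Here, estimated counts were rounded, and edgeR 4.0.16 in R 4.3.3 filtered low genes by condition (filterByExpr), which kept 15528 genes, and scaled by TMM. All 9 libraries entered 1 quasi-likelihood fit with condition as the only term, tested at a Benjamini–Hochberg adjusted p under 0.05 over all genes. CPM values use TMM-scaled library sizes, and gene TPM is the sum over transcripts. Transcripts (66693) were fitted alike. Same-numbered libraries of different conditions did not deviate together (correlations of -0.08 to 0.09), so numbers were not taken as pairs. Replicates differed by more than sampling noise. Positions come from GENCODE release 44, where 102 of 109 transcripts of the 10 genes were found, and promoters from RefSeq.

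The 10 genes and the 7 pathway lists were chosen with earlier results of these data known. The 10 genes are always named. Of each list, genes past the threshold (at most 3 per direction, by smallest p) and untested genes are named, with *RIPK1* and *BID* in any case, and transcripts with at least 10% of their gene's mean TPM. TNFRSF12A-202, TNFRSF12A-203 and the *CFLAR* forms by codon number, *MLKL*, *ADAM10*, *ADAM17*, *CD68* and *PTPRC* are given beside them. Some genes that these rules or the marker lists name are not reported here. Alternatives were DESeq2 1.42.0 size factors, DESeq2, limma-voom (limma 3.58.1), no count filter, at least 10 counts in every library, the 6 libraries of a comparison, a replicate block, counts made from TPM values, leaving out each library, a threshold of 0.01 and, added after seeing the data, no mitochondrial-genome genes.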

Additional observations from a re-analysis of the deposited data

How the results depend on the processing

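For suspended against attached cells with vehicle, the count of 3 members became 1 with DESeq2, without a filter, with only the 6 libraries of the comparison, with counts rebuilt from TPM and at a threshold of 0.01, and was 1 to 2 with a library left out. It was 2 with limma-voom and rose to 4 with at least 10 counts in every library, where 3251 and 3543 of all genes passed. Of all genes, 3199 passed with DESeq2, 3723 without a filter and 3087 with only the 6 libraries. The 3297 genes called became 1396 with counts rebuilt from TPM, 1405 at a threshold of 0.01 and 1935 to 3260 with a library left out (1935 without attached replicate 3, 1951 without suspended vehicle replicate 2). With at least 10 counts in every library, 2 member transcripts passed in place of 0, and the share of all transcripts passing under that filter is not given here. For AT-0174 against vehicle, 0 members passed in every alternative, while the 121 genes called became 239 with DESeq2, 499 without a filter, 31 with counts rebuilt from TPM, 52 at a threshold of 0.01 and 63 to 128 with a library left out. For AT-0174 against attached cells, the 5 members became 2 with counts rebuilt from TPM, 1 at a threshold of 0.01 and 1 to 4 with a library left out (1 without attached replicate 3 or AT-0174 replicate 1, 3 without attached replicate 2 or AT-0174 replicate 3). The 3724 genes called became 1802, 1839 and 2239 to 3680 (2381 without attached replicate 3, 2239 without AT-0174 replicate 1). Without a filter 6 members passed in that comparison, *CASP8* among them, and with DESeq2 4 did. Of all genes, 4205 and 3530 passed in these settings.

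With the replicate block, 1 member (*TNFRSF12A*) passed in suspension, 0 with AT-0174 against vehicle and 5 with AT-0174 against attached cells (*CASP8*, *CFLAR*, *FADD*, *TNFRSF10A* and *TNFRSF12A*). Of all genes, 3250, 146 and 3677 passed with the block in the same order. None of the 9 same-number correlations was over 0.1, while 2 of the 18 between different numbers were. With 3 libraries per condition this cannot show whether the numbers mark pairs.

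Several log2 fold changes turned direction. With counts rebuilt from TPM these were *TNFRSF1A* (-0.10) and *CFLAR* (0.09) in suspension, *TNFRSF10B* (0.09) with AT-0174 against vehicle, and *TNFRSF21* (0.00) and *CFLAR* (0.08) with AT-0174 against attached cells. Only *CFLAR* of these had passed the threshold, and the cause was not tested. Without a filter *CASP8* (0.00) turned in suspension and *TNFRSF21* (0.00) with AT-0174 against attached cells. With a library left out, *TNFRSF1A* (-0.01 to 0.04) and *CASP8* (-0.04 to 0.05, with 0.02 and 0.01 among them) turned in suspension. In AT-0174 against vehicle *TNFRSF10A* (-0.03 to 0.02), *TNFRSF10B* (-0.07 to 0.04), *TNFRSF21* (0.00 to 0.08), *TRADD* (-0.08 to 0.08) and *BID* (-0.06 to 0.01) did. In AT-0174 against attached cells *TNFRSF10B* (-0.03 to 0.08) and *TNFRSF21* (-0.06 to 0.03) did. None of those had passed the threshold. *TNFRSF12A* kept its call and direction in all alternatives of both comparisons with attached cells. *FAS*, most ligands and the decoy receptors lay at or near the limit of detection at this depth.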
